A study of Mus musculus with 12 samples.

Results

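The 10 genes described here encode the liver's main apolipoproteins and the lipid transfer protein that loads them: Apoa1, Apoa2, Apoa4, Apoa5, Apob, Apoc2, Apoc3, Apoe and Apom, and Mttp, the large subunit of the microsomal triglyceride transfer protein. They were chosen by name from the 51912 gene identifiers of the count table, all 10 were found, and all 10 were among the 18098 genes that held enough counts to be tested. RNA came from the livers of 12 mice in 4 groups of 3, wild-type or Mlkl-/-, each fed a normal chow diet (ND) or a high-fat diet (HFD) in which 36% was fat and 59% of the energy came from lipid. MLKL is the membrane-rupturing effector of necroptosis, a lytic form of cell death, and the series asks what it does in diet-induced obesity and fatty liver. Mice entered the diets at 8 to 9 weeks of age, and the sample labels put all 12 at 25 weeks of diet, where the description of the series allows 16 weeks or more. That description also says that the mice were fed when sampled and were chosen by their mean organ weights. The strain, the sex and the extent of the Mlkl deletion are not stated in the labels, and each title carries a number of its own, taken here as 1 animal.

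Apolipoproteins are the protein coat of the particles that carry triglyceride and cholesterol through blood. In hepatocytes a single, very large apoB protein is filled with lipid by the microsomal triglyceride transfer protein while it enters the endoplasmic reticulum, and it leaves the cell as a very-low-density lipoprotein. The smaller apolipoproteins move between particles: apoC-II activates lipoprotein lipase, apoC-III restrains it and slows the uptake of remnants, apoA-V promotes lipolysis, and apoE is the ligand through which remnants return to the liver. ApoA-I and apoA-II build high-density lipoprotein, apoM rides on it and carries sphingosine 1-phosphate, and apoA-IV, best known from the intestine, travels on chylomicrons and high-density lipoprotein and is also made in mouse liver.

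Averaged over both genotypes, HFD livers held more Apoa4 and Apoc2 transcript and less Apom transcript. The genes that build the apoB particle, Apob and Mttp, and the most abundant member, Apoe, did not pass the test for diet. A difference between the genotypes' responses to diet passed for 0 of the 10 genes. In wild-type mice 3 of the 10 genes passed, Apoa4 and Apoc2 higher and Apom lower, beside 4.23% of all genes tested (2.02% higher and 2.21% lower). In Mlkl-/- mice Apoc2 alone passed, 1 of 10 and higher, beside 0.359% of all genes (0.21% higher and 0.149% lower). Passing means a Benjamini-Hochberg adjusted p under 0.05 over all 18098 genes in edgeR's quasi-likelihood test. At an unadjusted p under 0.05 in that test stood 3702 of these genes for diet in wild-type and 2459 for diet in Mlkl-/- mice. Unadjusted counts for members and lists are to be read beside these numbers. Log2 fold changes are given with a standard error (SE) derived from the quasi-likelihood test. It is the size of the log2 fold change divided by the square root of the test's F statistic. Levels are in CPM, a library's counts scaled to a common total with library sizes adjusted by the TMM method. Where groups are said to overlap or not, the words describe the values and are not a test. The share of all genes tested whose groups separate in the same way was not counted.

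Some facts of the libraries bear on every value. Libraries held 19435391 to 32120426 counts, of which the 10 genes took 2.98% to 4.14%. Mlkl was counted 72, 76 and 92 times in wild-type ND and 134, 252 and 88 times in wild-type HFD livers, against 16, 15 and 20 times in Mlkl-/- ND and 16, 9 and 34 times in Mlkl-/- HFD livers. A 3' tag outside the deleted part would check nothing. Apart from the groups, 8 loci of small RNA genes, Gm15564 and Lars2 were high together in 6 libraries (3484 to 9239 summed raw CPM) and low in the other 6 (378 to 656). The high libraries comprised every Mlkl-/- HFD liver, replicates 2 and 3 of the wild-type HFD group and, alone on ND, replicate 1 of the Mlkl-/- group, so that this level went largely with the diet. Titles carry a code of unstated meaning, 23 or 27 on ND and 25 or 29 on HFD, and values within the lower (23 and 25) and higher (27 and 29) codes stand beside the results that passed. No code occurs on both diets, so the pairing of 23 with 25 and of 27 with 29 is a choice made here. Each such value sets 1 library on a diet against 2 on the other, without a test.

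The members sit in 2 clusters and at 4 other places. On mm10, the chromosome 9 cluster spans 43.34 kb (46228580 to 46271919) and holds Apoa1, Apoc3, Apoa4 and Apoa5, with Apoc3 on the minus strand and the others on the plus strand. The chromosome 7 cluster spans 27.61 kb (19671579 to 19699188), all on the minus strand, and holds Apoc2, Apoc4, Apoc1 and Apoe. Apoa2 lies on chromosome 1, Apob on chromosome 12, Apom on chromosome 17 and Mttp on chromosome 3.

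RefSeq windows upstream of the start (GRCm38.p6) were found for 9 of the 10 genes, 13 windows in all. Stretches are shown for the pair of genes that were higher on HFD, Apoc2 and Apoa4, and for Apoa5, a neighbour of Apoa4 in the same cluster that did not pass the test, each read 5′ to 3′ on the gene's own strand. Capitals mark matches to the motifs searched on both strands. The Apoc2 stretch is chr7:19677942-19678082 (minus strand), 141 bases that end at the base before the start and begin where the 3′ end of Apoc4, on the same strand, stops.

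Apoc2: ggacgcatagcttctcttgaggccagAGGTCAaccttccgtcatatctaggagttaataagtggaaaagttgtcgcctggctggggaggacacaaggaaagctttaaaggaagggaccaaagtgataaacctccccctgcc

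The Apoa4 stretch is chr9:46240594-46240695 (plus strand), 102 bases that stop 149 bases before RefSeq's start because the GENCODE exon begins earlier, and the Apoa5 stretch is chr9:46268358-46268607 (plus strand), 250 bases. All of the Apoa4 stretch lies inside the exon of Gm47528, a gene on the opposite strand.

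Apoa4: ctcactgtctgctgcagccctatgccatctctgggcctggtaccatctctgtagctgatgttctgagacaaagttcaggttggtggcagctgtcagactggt

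Apoa5: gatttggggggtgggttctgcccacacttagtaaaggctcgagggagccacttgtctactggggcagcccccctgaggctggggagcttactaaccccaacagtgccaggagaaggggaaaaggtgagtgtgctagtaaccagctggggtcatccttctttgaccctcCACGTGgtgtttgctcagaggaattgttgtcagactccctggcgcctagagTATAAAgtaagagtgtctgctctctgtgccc

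The motifs were the TATA box TATAAA (in 12.37% of 32851 windows of 250 bases), the nuclear receptor core AGGTCA (14.02%), the E-box CACGTG (6.021%), the forkhead core GTAAACA (3.166%), the cyclic AMP response element core TGACGT (6.469%) and the HNF4 direct repeat core CAAAGTCCA (0.3835%). Apoc2 had AGGTCA 115 bases before its start, and Apoa5 had TATAAA 31 and CACGTG 82 bases before the start of the window shown. In another RefSeq window of Apoa5 the same letters lay 56 and 107 bases before the start. None of these letters occurred in the Apoa4 window. Among the other members, the TATA box letters were found in Apoa2, Apob and Apoe, the forkhead and nuclear receptor cores in Apoa2 and the cyclic AMP core in Mttp. A match is a run of letters, not a bound site.

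Apob, the scaffold of very-low-density lipoprotein, was counted at 5333, 5067 and 5842 CPM in wild-type ND livers and at 5300, 5099 and 4627 CPM on HFD. In Mlkl-/- livers it was at 4749, 6822 and 7994 CPM on ND and at 4408, 4492 and 4482 CPM on HFD. The wild-type groups overlapped, whereas all 3 Mlkl-/- HFD values lay below all 3 Mlkl-/- ND values and below all 3 wild-type HFD values. The log2 difference, HFD minus ND, was -0.11 ± 0.18 in wild-type (adjusted p = 0.79) and -0.55 ± 0.18 in Mlkl-/- mice (adjusted p = 0.205). Without Mlkl-/- ND replicate 1, the lowest of that group, the Mlkl-/- value was -0.71 (adjusted p = 0.0328). The average over genotypes was then -0.40 (adjusted p = 0.0318), and both passed. Neither passed on any other omission or under any alternative. Under the alternatives the Mlkl-/- value ran from -0.55 to -0.27 (adjusted p = 0.0555 to 0.771). The omitted library was the only ND library at the higher level of the 8 loci. The Mlkl-/- HFD libraries differed from it by -0.09, and from the Mlkl-/- ND libraries at the lower level by -0.73, without a test.

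Mttp, which transfers triglyceride onto the nascent apoB chain, had the narrowest range of the 10 genes over the 12 libraries. It was at 294, 265 and 266 CPM in wild-type ND, 310, 313 and 287 in wild-type HFD, 272, 265 and 258 in Mlkl-/- ND and 299, 282 and 248 in Mlkl-/- HFD livers. Groups that differ in diet alone or in genotype alone overlapped, and the diet difference was 0.14 ± 0.13 in wild-type and 0.06 ± 0.13 in Mlkl-/- mice (log2, SE; adjusted p = 0.584 and 0.872).

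Genes around these steps were read from a list of 15 with roles in folding, lipidation and export of apoB particles. In wild-type mice edgeR called 0 of the 15, with 5 at an unadjusted p under 0.05, and the list's median was 0.07 beside -0.01 for all genes. DESeq2 called 2 of them, Pla2g12b lower and Mia2 higher, and limma-voom called Pla2g12b. In Mlkl-/- mice edgeR, DESeq2 and limma-voom called 0, with 1 at an unadjusted p under 0.05 in edgeR. Averaged over both genotypes, Lpcat3, which enriches particle membranes in polyunsaturated phospholipid, rose by 0.39 ± 0.11 (log2, SE; edgeR adjusted p = 0.0473). Its means were 88.2 ± 0.721 and 114 ± 13.8 CPM in wild-type ND and HFD livers (SD, n = 3) and 70.5 ± 9.55 and 92.9 ± 18.2 CPM in Mlkl-/- livers, and it was not called by limma-voom, without robust dispersions or with the 8 loci as a term. With library size only, Lpcat3, P4hb and Mia2 were called higher in wild-type mice and on average. On average DESeq2 called Mia2, Sort1 and Lpcat3, 2 higher and 1 lower, and limma-voom called Sort1 alone, lower.

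**Figure D1:**
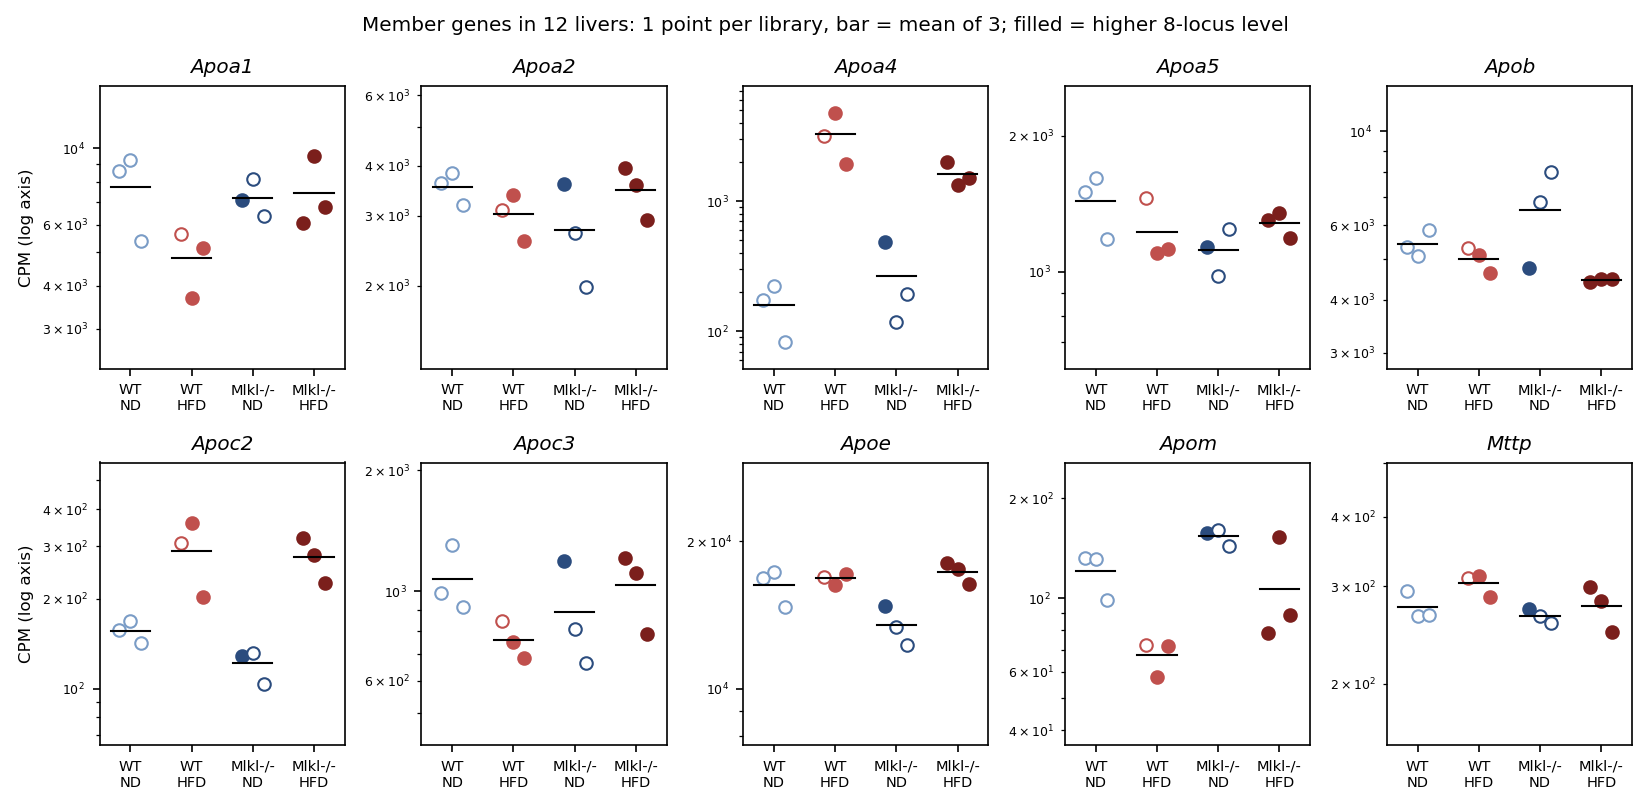
CPM (log axis, with its own range in each panel) of the 10 genes in each of the 12 libraries by group, with bars at the means of 3 and filled points for libraries at the higher level of the 8 loci. Apoa4 and Apoc2 are higher in all 6 HFD than in all 6 ND libraries, Apom is lower in all 3 wild-type HFD than in all 3 wild-type ND libraries, and Mttp stays between 248 and 313 CPM.

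Apoa4 showed the largest diet difference of the 10 genes. In wild-type livers it was at 173, 223 and 83.1 CPM on ND and at 3175, 4768 and 1919 CPM on HFD, and in Mlkl-/- livers at 484, 118 and 195 CPM on ND and at 1980, 1331 and 1495 CPM on HFD. All 6 HFD values lay above all 6 ND values, and the highest ND value belonged to Mlkl-/- ND replicate 1, the only ND library at the higher level of the 8 loci. In wild-type mice Apoa4 rose by 4.36 ± 0.62 (log2, SE; adjusted p = 0.00926), a 20.6-fold change, and ranked 69 of 18098 genes by p. In a bulk sample, more transcript per cell and more cells of a type that holds it cannot be told apart.

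In Mlkl-/- mice the Apoa4 difference was 2.59 ± 0.57 (log2, SE), 6.04-fold, with an adjusted p of 0.099 that missed the threshold. It passed with DESeq2 (adjusted p = 0.00158), limma-voom (0.0302) and edgeR without robust dispersions (0.044), and without Mlkl-/- ND replicate 1, at 3.39 (adjusted p = 0.0207). Averaged over genotypes the difference was 3.48 ± 0.42 (adjusted p = 0.00232). The test of the difference between the genotypes' responses gave -1.77 ± 0.77 (adjusted p = 0.462, unadjusted p = 0.0438), so a smaller response in Mlkl-/- mice was not shown. Within the lower and the higher title codes the wild-type HFD minus ND difference was 4.01 and 5.18, and the Mlkl-/- difference 1.74 and 3.31. Read at 1 level of the 8 loci, the wild-type HFD library at the lower level differed from the ND mean by 4.43, and the Mlkl-/- HFD libraries differed by 1.71 from the ND library at their own, higher level and by 3.38 from the other 2.

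Apoa4 is overlapped by a pair of antisense genes, and the sources used here do not say how the authors' counting treated strand and shared reads. Gm10680 covers 34.8% of the exon bases of Apoa4 at its 3′ end, and Gm47528 covers 34.9% nearer its 5′ end, with 1181 exon bases of Apoa4 downstream. Over the 12 libraries Gm10680 held 0.409 to 0.498 counts per Apoa4 count and Gm47528 0.221 to 0.310, while Apoa4 itself ranged from 2539 to 157088 counts. Their wild-type diet differences, 4.31 and 4.38 on the log2 scale, are therefore not independent of the 4.36 of Apoa4, and reads of the gene and its antisense partners cannot be told apart. Apoa5 has a like partner, the antisense gene Gm47544, at 0.264 to 0.293 counts per Apoa5 count.

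**Figure D2:**
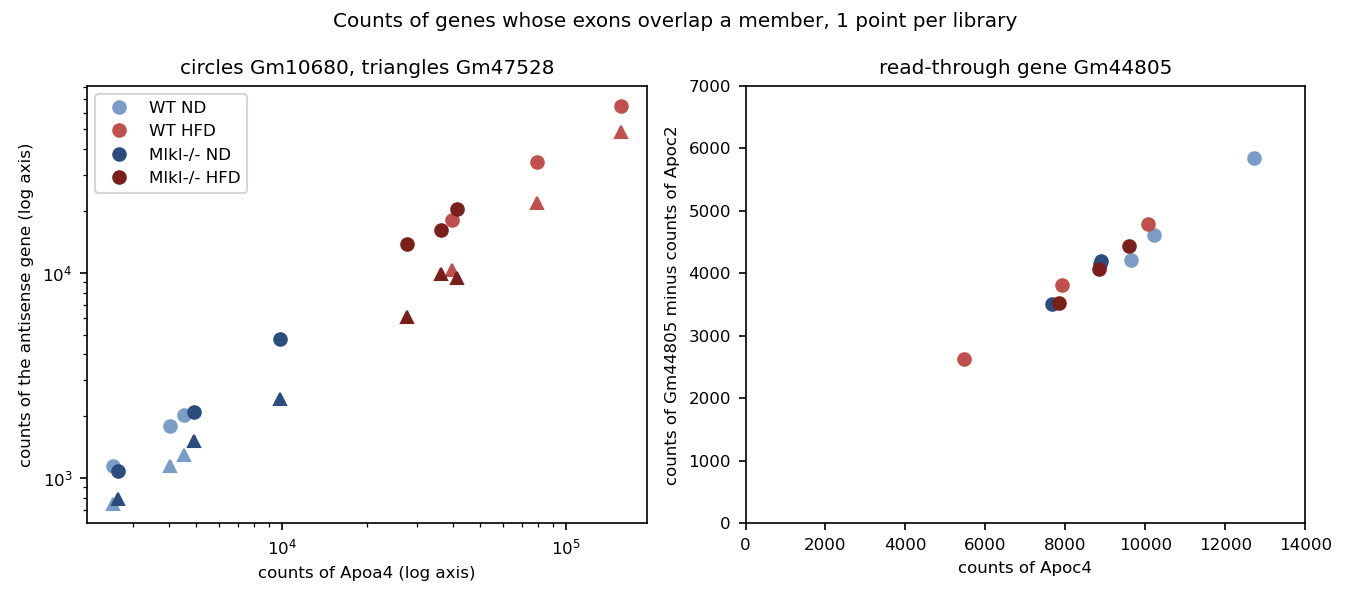
Left, counts of the antisense genes Gm10680 (circles) and Gm47528 (triangles) against counts of Apoa4, both axes logarithmic. Right, counts of the read-through gene Gm44805 less those of Apoc2 against counts of Apoc4, 1 point per library in both panels, where the ratio stays between 0.438 and 0.483.

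Apoc2, whose product is the cofactor that lipoprotein lipase needs, was higher on HFD in both genotypes. In wild-type livers it was at 158, 168 and 142 CPM on ND and at 307, 359 and 203 CPM on HFD, and in Mlkl-/- livers at 129, 132 and 104 CPM on ND and at 321, 282 and 226 CPM on HFD. All 6 HFD values lay above all 6 ND values, and on ND the 3 Mlkl-/- values lay below the 3 wild-type values. Apoc2 rose by 0.89 ± 0.20 in wild-type (log2, SE; adjusted p = 0.0236) and by 1.18 ± 0.20 in Mlkl-/- mice (adjusted p = 0.0246), where it ranked 19 of 18098 genes by p. The average was 1.04 ± 0.14 (adjusted p = 0.00122), and the responses differed by 0.29 ± 0.28 (adjusted p = 0.733).

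Within the lower and higher title codes the Apoc2 difference was 0.92 and 0.92 in wild-type mice, and 1.22 and 0.95 in Mlkl-/- mice. Each of these sets 1 library against 2. Leaving out 1 library at a time, the wild-type value ran from 0.71 to 1.09 and the Mlkl-/- value from 1.06 to 1.31. With the level of the 8 loci as a term, the wild-type value was 0.89 (adjusted p = 0.0696) and the Mlkl-/- value 1.18 (adjusted p = 0.0945), the same sizes with larger errors. A fit of the Mlkl-/- groups only gave 1.20 (adjusted p = 0.0674). The wild-type call was lost without any 1 of the 3 ND libraries or without HFD replicate 1 or 2 (0.71 to 0.97, adjusted p = 0.0666 to 0.128), and the Mlkl-/- call without ND replicate 2 or 3 or HFD replicate 1 (1.06 to 1.26). Gm44805, a read-through gene on the same strand, shares 79.5% of the exon bases of Apoc2 and part of the first exon of Apoc4. Its counts less those of Apoc2 were 0.438 to 0.483 per Apoc4 count in all 12 libraries, and it differed by 0.28 ± 0.19 in wild-type mice (adjusted p = 0.447).

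Apoc3 encodes the brake on the same lipolysis. It was at 992, 1305 and 916 CPM in wild-type ND and 843, 748 and 683 in wild-type HFD livers, with no overlap, and at 1190, 806 and 666 CPM in Mlkl-/- ND and 1212, 1111 and 785 in Mlkl-/- HFD livers, which overlapped. The diet difference was -0.50 ± 0.23 in wild-type (log2, SE; adjusted p = 0.227) and 0.22 ± 0.22 in Mlkl-/- mice (adjusted p = 0.695). The counts of Apoc2 per count of Apoc3 were 0.129 to 0.159 in wild-type ND and 0.297 to 0.480 in wild-type HFD livers, and 0.109 to 0.164 and 0.254 to 0.287 in the Mlkl-/- groups. In this activator-to-inhibitor ratio, given without a test, the lowest HFD library stood above the highest ND library.

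Apoa5, a helper of lipolysis that is expressed in liver, overlapped between all pairs of groups. It was at 1504, 1610 and 1181 CPM in wild-type ND, 1459, 1098 and 1121 in wild-type HFD, 1133, 978 and 1242 in Mlkl-/- ND and 1302, 1348 and 1188 in Mlkl-/- HFD livers. The differences were -0.22 ± 0.17 and 0.19 ± 0.17 (log2, SE; adjusted p = 0.514 and 0.646).

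Apoe was the most abundant of the 10 genes in every library. It was at 16811, 17313 and 14699 CPM in wild-type ND, 16921, 16262 and 17148 in wild-type HFD, 14717, 13369 and 12271 in Mlkl-/- ND and 18082, 17525 and 16328 in Mlkl-/- HFD livers. The wild-type groups overlapped, and the Mlkl-/- HFD values all lay above the Mlkl-/- ND values. The diet difference was 0.04 ± 0.15 in wild-type (log2, SE; adjusted p = 0.913) and 0.36 ± 0.15 in Mlkl-/- mice (adjusted p = 0.312). Macrophages also express Apoe. Their 15 markers, all with counts in every group, summed to 257 to 333 CPM in wild-type ND, 351 to 576 in wild-type HFD, 301 to 418 in Mlkl-/- ND and 184 to 335 in Mlkl-/- HFD livers, and the group with the lowest median sum, Mlkl-/- HFD, had the highest mean of Apoe. Their part in the Apoe values was not tested.

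Apoa1, the main protein of high-density lipoprotein, was at 8592, 9221 and 5392 CPM in wild-type ND and 5648, 3680 and 5123 in wild-type HFD livers. In Mlkl-/- livers it was at 7078, 8146 and 6348 CPM on ND and 6083, 9458 and 6745 on HFD. On HFD all 3 Mlkl-/- values lay above the wild-type values, and the diet groups overlapped in both genotypes. The diet difference was -0.68 ± 0.24 in wild-type (log2, SE; adjusted p = 0.12) and 0.05 ± 0.24 in Mlkl-/- mice (adjusted p = 0.951).

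Apoa2, which encodes the second protein of high-density lipoprotein, overlapped between all pairs of groups. It was at 3622, 3832 and 3181 CPM in wild-type ND, 3098, 3383 and 2595 in wild-type HFD, 3600, 2707 and 1990 in Mlkl-/- ND and 3951, 3568 and 2925 in Mlkl-/- HFD livers. The differences were -0.23 ± 0.21 and 0.33 ± 0.21 (log2, SE; adjusted p = 0.592 and 0.505). The counts of Apoa4 per count of Apoa1 ran from 0.0154 to 0.0242 in wild-type ND and from 0.375 to 1.30 in wild-type HFD livers, and in Mlkl-/- livers from 0.0144 to 0.0684 on ND and from 0.141 to 0.325 on HFD. These ratios are given without a test.

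Apom, the carrier of sphingosine 1-phosphate, was the member that fell. In wild-type livers it was at 132, 131 and 98.6 CPM on ND and at 72.1, 57.8 and 71.9 CPM on HFD, and in Mlkl-/- livers at 157, 160 and 144 CPM on ND and at 78.6, 152 and 89.1 CPM on HFD. The wild-type groups did not overlap. The Mlkl-/- groups overlapped through HFD replicate 2, and on each diet all 3 Mlkl-/- values lay above all 3 wild-type values. The fitted log2 difference was -0.84 ± 0.21 in wild-type mice (SE; adjusted p = 0.0373), a fall, and the difference in Mlkl-/- mice was -0.53 ± 0.21 (adjusted p = 0.287).

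Averaged over genotypes, Apom stood at -0.68 ± 0.15 and passed (log2; adjusted p = 0.0149), and the responses of the genotypes differed by 0.32 ± 0.30 (adjusted p = 0.731). Within the lower and higher title codes wild-type mice showed -0.87 and -0.61, and Mlkl-/- mice -0.52 and -0.77. The wild-type call was lost with library size only (-0.65, adjusted p = 0.057), with the title code (-0.75, adjusted p = 0.0582) or the 8 loci (-0.81, adjusted p = 0.131) as a term, and on leaving out 7 of the 12 libraries 1 at a time: the 3 wild-type ND, the 3 wild-type HFD and Mlkl-/- ND replicate 2 (adjusted p = 0.0603 to 0.177). In Mlkl-/- mice it passed without HFD replicate 2 (-0.85, adjusted p = 0.0445). Other secreted products of hepatocytes were lower in the same wild-type comparison: 7 of 19 such genes fell and 0 rose, among them Fgb by 1.21, Fga by 1.19 and Fgg by 1.09, the 3 chains of fibrinogen, and Ahsg by 0.87, a plasma glycoprotein (log2), and the list's median was -0.50. With library size only 3 of the 19 fell, with the 8 loci as a term 0 and with DESeq2 10. In Mlkl-/- mice edgeR called 0 of the 19, with 6 at an unadjusted p under 0.05, DESeq2 called Hpx lower and Serpina6 higher, and limma-voom called 0.

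**Figure D3:**
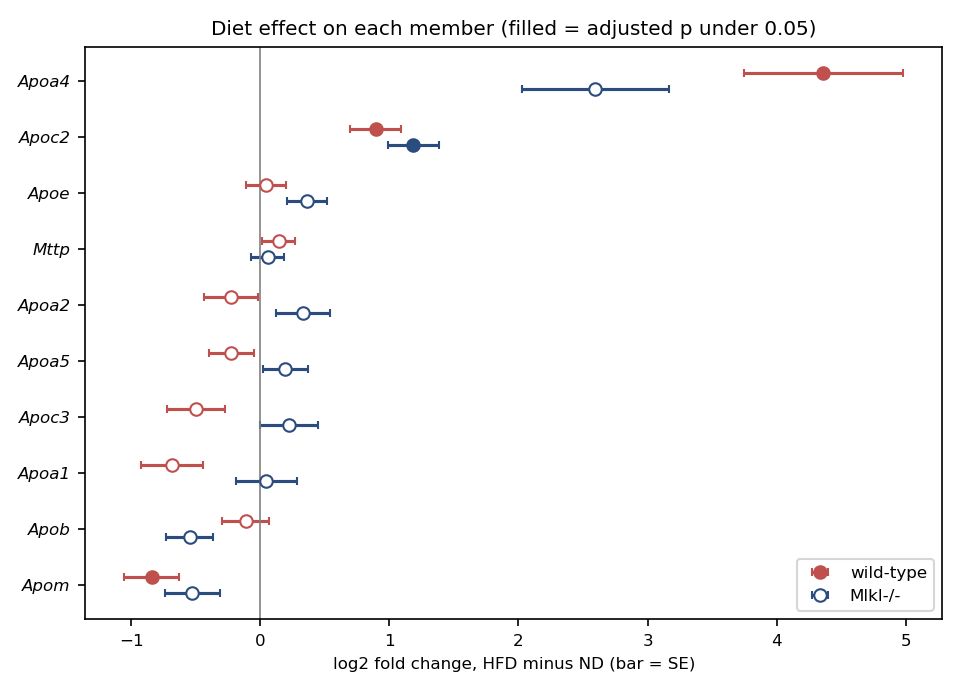
Log2 fold change of HFD against ND for each of the 10 genes in wild-type and Mlkl-/- mice, with bars of 1 SE and filled points for an adjusted p under 0.05. The 4 filled points are Apoa4 (4.36), Apoc2 (0.89) and Apom (-0.84) in wild-type and Apoc2 (1.18) in Mlkl-/- mice.

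Taking both genotypes together as an average diet effect, edgeR called the same 3 members, Apoa4 and Apoc2 higher and Apom lower, beside 7.19% of all genes (3.57% higher and 3.62% lower). Among the other 7 the average ran from -0.33 for Apob to 0.20 for Apoe. The members' median was 0.02, beside -0.01 for all genes tested. The fitted diet difference had the same sign in both genotypes for Apoa4, Apoc2, Apoe, Mttp, Apob and Apom, except that wild-type Apob turned to 0.085 with library size only and to 0.15 with the 8 loci as a term, and wild-type Apoe to -0.015 with the latter. Apoa1, Apoa2, Apoa5 and Apoc3 had negative values in wild-type and positive values in Mlkl-/- mice, none of which passed, and Apoa1 in Mlkl-/- mice turned to -0.068 with the title code as a term.

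Tests of genotype asked whether loss of Mlkl changed these genes on either diet. On ND edgeR called 0 of the 10 genes, beside 0.00553% of all genes, with 0 at an unadjusted p under 0.05. On HFD it called 0, beside 0.0276%, with 2 at an unadjusted p under 0.05: Apoa1 at 0.62 ± 0.24 (adjusted p = 0.238) and Apom at 0.67 ± 0.21 (log2, Mlkl-/- minus wild-type, SE; adjusted p = 0.182). Averaged over diets 0 were called, beside 0.0166%, with 1 at an unadjusted p under 0.05, Apom at 0.51 ± 0.15 (adjusted p = 0.256). For the difference between the diet responses of the genotypes, 0 of 10 members and 0% of all genes were called, with 3 members at an unadjusted p under 0.05: Apoa4, Apoa1 (0.73 ± 0.34, adjusted p = 0.468) and Apoc3 (0.72 ± 0.32, adjusted p = 0.451). DESeq2 and limma-voom also called 0 members in these 4 comparisons. Of all 18098 genes tested, edgeR gave an unadjusted p under 0.05 to 997 for genotype on ND and 2806 on HFD. It did so for 1927 genes averaged over diets and for 1889 in the difference between responses. The members' unadjusted counts are therefore not read as results. All comparisons that use a group share its 3 libraries, so the diet and genotype values above are not independent of each other. On HFD, all 15 macrophage and all 10 endothelial markers had negative values (Mlkl-/- minus wild-type), of which 0 and 2 passed. The endothelial sum was 136 to 173 CPM in Mlkl-/- against 261 to 400 CPM in wild-type livers. Of 7 bile duct and 9 adipocyte markers tested, 6 and 8 were negative and 0 passed. Of 10 lymphocyte markers tested, 6 were positive, 4 were negative and 0 passed. Of 12 stellate cell markers 10 were negative, 8 of the 12 had an unadjusted p under 0.05 and 0 passed. The 19 secreted hepatocyte products went the way of Apoa1 and Apom, with 18 positive values, 10 at an unadjusted p under 0.05 and 0 called by edgeR, while DESeq2 called 6 higher. The part of these lists in the members' genotype values was not tested.

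Along the chromosome 9 cluster, neighbours differed in their response. In wild-type mice Apoa4 rose by 4.36, while Apoa1, Apoc3 and Apoa5, all within the same 43.34 kb, had values of -0.68, -0.50 and -0.22 (log2) that did not pass. Along the chromosome 7 cluster, Apoc2 rose by 0.89 and Apoe stood at 0.04, with Apoc4 and Apoc1 between them. Apoc1, an inhibitor of remnant uptake, was at 2583 ± 340 CPM on ND and 1555 ± 245 CPM on HFD in wild-type livers (SD, n = 3) and at 1806 ± 212 and 2143 ± 241 CPM in Mlkl-/- livers. Its diet difference was -0.73 ± 0.18 in wild-type mice, which passed (log2, SE; adjusted p = 0.0311) except with library size only or the 8 loci as a term, and 0.25 ± 0.17 in Mlkl-/- mice (adjusted p = 0.561). The Apoc1 responses of the genotypes differed by 0.98 ± 0.25 (adjusted p = 0.338, unadjusted p = 0.00127), a difference that DESeq2 called and the other alternatives did not. Apoc4 stood at -0.59 ± 0.18 (adjusted p = 0.0725) in wild-type mice, where DESeq2 and the fit of the compared groups only called it lower.

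Genes beside the clusters were 11, from Sik3 to Bcam. In each genotype edgeR called 0 of them, with 5 in wild-type and 4 in Mlkl-/- mice at an unadjusted p under 0.05; DESeq2 called Zpr1 in wild-type and Nectin2 and Relb in Mlkl-/- mice, and limma-voom 0 in both. On average Relb, a subunit of NF-kappaB beside the chromosome 7 cluster, rose by 1.41 ± 0.29 (log2, SE; adjusted p = 0.0114) at a level under 5 CPM in all libraries, and Nectin2, a cell adhesion protein, rose by 0.45 ± 0.12 (adjusted p = 0.0348). Tagln, an actin-binding protein of smooth muscle beside the chromosome 9 cluster, fell by 0.58 (log2; adjusted p = 0.0499), a call that held only without a filter and with DESeq2 among the 9 alternatives. With the 8 loci as a term none of the 11 passed.

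**Figure D4:**
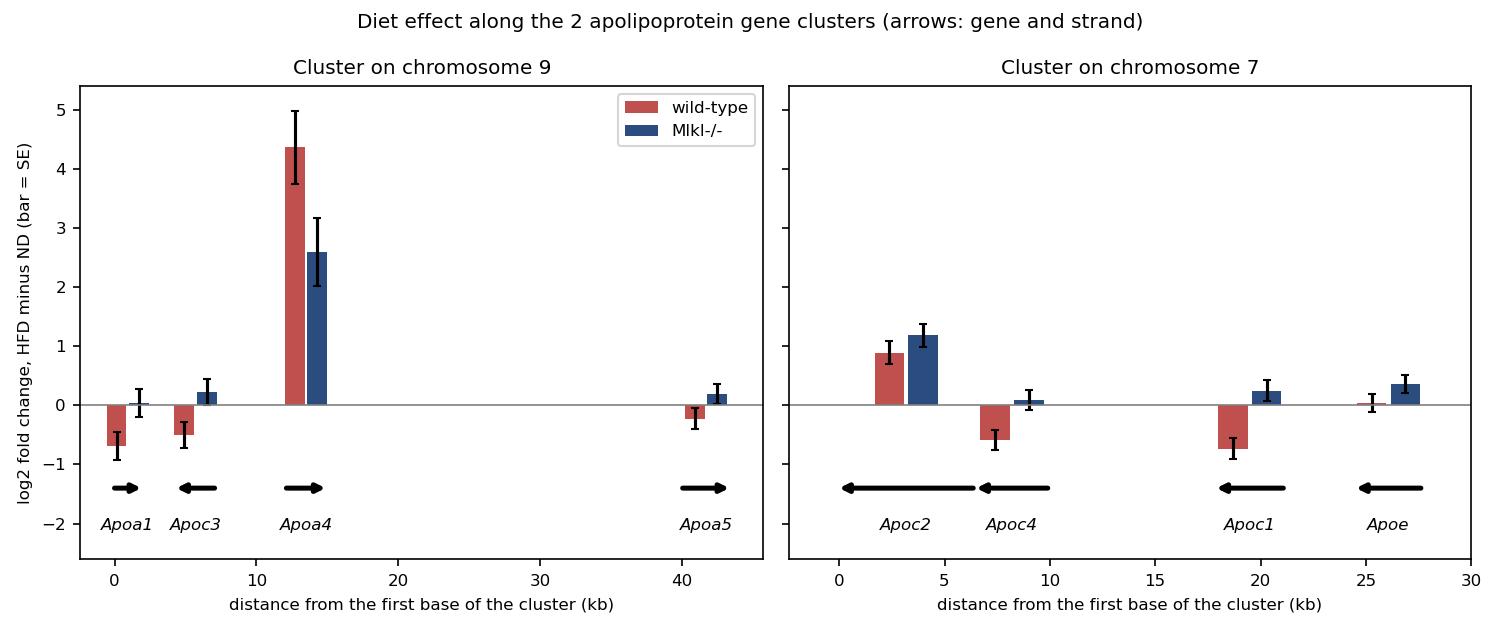
Log2 fold change of HFD against ND for the genes of the chromosome 9 and chromosome 7 clusters, placed by distance from the first base of each cluster, with bars from 0, error bars of 1 SE and arrows for each gene's extent and strand. Apoa4 stands at 4.36 in wild-type and 2.59 in Mlkl-/- mice between neighbours at or under 0.22, and Apoc2 at 0.89 and 1.18 beside Apoc4 at -0.59 and 0.09.

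Compared per kb of longest coding transcript, the order of levels in wild-type ND livers was Apoe (11559 ± 985 CPM per kb, SD, n = 3), Apoa1 (7474 ± 1984), Apoa2 (6844 ± 641), Apoc3 (1510 ± 291), Apoa5 (569 ± 88.9), Apob (389 ± 28.3), Apoc2 (215 ± 17.9), Apom (119 ± 18.8), Apoa4 (88.1 ± 39.1) and Mttp (69.4 ± 4.15). The order depends on the scale. In CPM without length Apob ranked 3 (5414 CPM) rather than 6 and Mttp ranked 7 rather than 10. The kit is named as a 3′ kit, and where reads come from the 3′ end alone, counts need not grow with length. Gm47528, with 1181 exon bases of Apoa4 downstream, held 0.221 to 0.310 counts per Apoa4 count. How far the reads were confined to the 3′ end was not tested. Per kb, Apoa1 and Apoa2 overlapped, as did Apom with Apoa4 and Apoa4 with Mttp, and the other neighbours in this order did not. In wild-type HFD livers Apoa4 ranked 4 on both scales, at 1811 ± 786 CPM per kb, overlapping Apoc3 at 1069 ± 114, and Apom ranked 10 at 66.4 ± 8.11. In Mlkl-/- HFD livers Apoa4 ranked 5 on both scales, at 883 ± 186 CPM per kb, between Apoc3 at 1461 ± 315 and Apoa5 at 509 ± 32.6, and overlapped neither. Apoe headed the order per kb in all 4 groups.

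Over the 12 libraries, Pearson correlations between members were highest for Apoa4 with Apoc2 (r = 0.872), Apoa2 with Apoc3 (0.845) and Apoa1 with Apom (0.830), and lowest for Apob with Apoe (-0.873). Libraries of a group share diet and genotype, and all values share library scaling, so these are descriptions of log2 CPM without a p. Among 10889 genes with a mean of at least 5 CPM, the most similar to Apoa4 were its antisense partners Gm10680 (r = 0.999) and Gm47528 (0.997), then Abhd4 (0.952), a lysophospholipase. The most similar to Apoc2 were Hsd17b11 (0.958), a lipid droplet dehydrogenase, Hfe2 (0.954), the iron regulator hemojuvelin, and Tmem86a (0.944). The most similar to Apom were Rplp0 (0.966), a ribosomal protein gene, Ahsg (0.965) and Rnf169 (0.962).

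The other genes of the lipoprotein pathway were counted by role. Of 10 genes of lipolysis and remodelling in plasma, edgeR called Pltp, the phospholipid transfer protein, which rose by 2.11 ± 0.29 in wild-type (log2, SE; adjusted p = 0.00538) and 2.50 ± 0.29 in Mlkl-/- mice (adjusted p = 0.00536). Pltp averaged 32.5 ± 9.78 CPM on ND and 140 ± 49.5 CPM on HFD in wild-type livers (SD, n = 3) and 16.5 ± 2.46 and 93.2 ± 26.4 CPM in Mlkl-/- livers, and was called in each genotype also by DESeq2, by limma-voom and with the 8 loci as a term.

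Of 14 receptors and transporters, Vldlr, the receptor for very-low-density lipoprotein, rose by 2.09 ± 0.41 in wild-type (log2, SE; adjusted p = 0.0148) and 3.38 ± 0.48 in Mlkl-/- mice (adjusted p = 0.00654). Its means on ND and HFD were 1.49 ± 0.257 and 6.29 ± 2.28 CPM in wild-type and 0.359 ± 0.214 and 3.84 ± 2.04 CPM in Mlkl-/- livers. Sdc1, the heparan sulfate proteoglycan that captures remnants, averaged 225 ± 28.0 CPM on ND and 142 ± 14.1 CPM on HFD in wild-type mice, a fall of log2 -0.66 ± 0.15 (adjusted p = 0.0247), and its difference in Mlkl-/- mice was -0.48 ± 0.15 (adjusted p = 0.166). With the 8 loci as a term neither passed in wild-type mice, with library size only Sdc1 did not, and neither limma-voom nor a fit of the compared groups only called Vldlr in Mlkl-/- mice. Of 14 transcription regulators, edgeR called 0 in either genotype, with 3 in each at an unadjusted p under 0.05; DESeq2, limma-voom and edgeR with either other filter called Hnf4a, a main regulator of apolipoprotein genes, in wild-type mice. With the compared groups only edgeR called 4 there, Hnf4a, Nr0b2, Ppara and Srebf2 (2 higher and 2 lower), and with library size only Srebf2. Hnf4a went from 453 ± 48.1 to 298 ± 10.5 CPM in wild-type (-0.60, edgeR adjusted p = 0.0509) and from 408 ± 29.3 to 409 ± 88.4 CPM in Mlkl-/- livers.

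**Figure D5:**
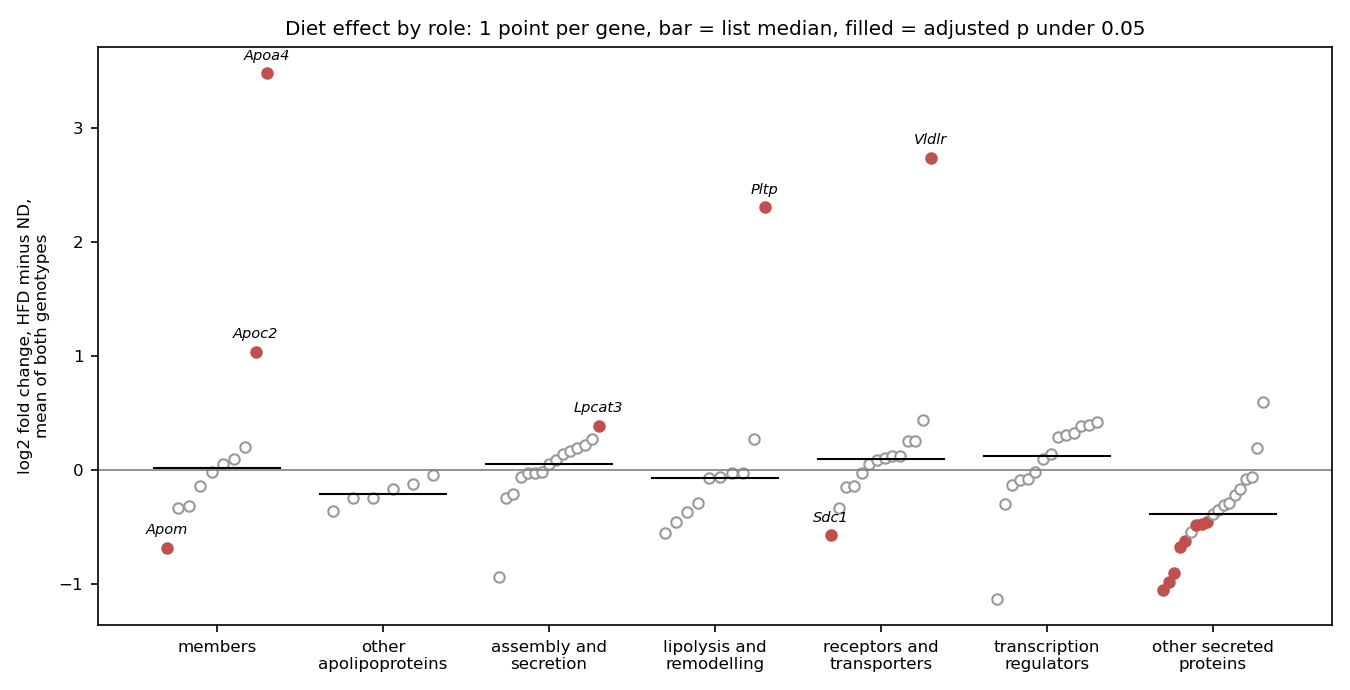
Log2 fold change of HFD against ND, averaged over both genotypes, for the 10 genes and 6 lists by role, 1 point per gene, with bars at list medians and filled points for an adjusted p under 0.05. The highest filled points are Apoa4 (3.48), Vldlr (2.73), Pltp (2.30) and Apoc2 (1.04).

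Apoa4 is highly expressed in intestine, so intestinal markers were read beside it. Cdx1, Cdx2 and Fabp6 had 0 counts in all 4 groups, and Sis and Lct had 0 in all groups except Mlkl-/- ND. The sum of the 8 markers, 67.7 to 83.9 CPM in wild-type ND and 155 to 174 in wild-type HFD livers, was nearly all Fabp2, a fatty acid binding protein. The sum was 46.1 to 63.4 CPM in Mlkl-/- ND and 134 to 198 in Mlkl-/- HFD livers. Of the 8 markers 2 had enough counts to be tested, and both were positive for diet in each genotype. Fabp2 was called higher in wild-type mice, in Mlkl-/- mice and on average, by 1.16, 1.68 and 1.42 (log2). The hepatocyte products were abundant in every library: 19 secreted proteins other than the members summed to 132513 to 135595 CPM in wild-type ND, 81656 to 106321 in wild-type HFD, 116806 to 149502 in Mlkl-/- ND and 104731 to 129665 in Mlkl-/- HFD livers. Adipoq, the marker of adipocytes, was at 0.171, 0.540 and 0.262 CPM in wild-type ND and 0.0801, 3.13 and 3.33 in wild-type HFD livers, and at most 1.15 CPM in the Mlkl-/- groups. Of the 9 adipocyte markers 8 were positive for diet in each genotype, with 2 called higher in wild-type, 1 in Mlkl-/- mice and 4 on average, and the wild-type median was 1.47 (log2). Their sum was 1693 to 2647 CPM in wild-type ND, 957 to 1543 in wild-type HFD, 2105 to 2512 in Mlkl-/- ND and 1423 to 3327 in Mlkl-/- HFD livers. Most of that sum was Pck1, an enzyme of glucose synthesis that hepatocytes also express, and it had the 1 negative value of the list (-0.86 in wild-type mice, adjusted p = 0.187). The part of these markers in the members' values was not tested.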

How the data were processed

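Liver RNA of 12 mice was measured with a QuantSeq 3′ kit, per the labels' protocols. The submitters' processing notes name cutadapt 1.9, HISAT2, featureCounts, limma and the mm10 build, with the annotation, strand setting and handling of overlapping genes not given in the sources used here. What the authors deposited are raw counts per Ensembl identifier, without normalization. Symbols were matched for 51633 of 51912 identifiers, and positions come from GENCODE M21. Genes were kept with filterByExpr (minimum 10, total 15). Libraries of a group differed beyond sampling noise (chi-square per degree of freedom 17.9 to 125), and none was merged. The p-values set each difference against the spread between animals, estimated over all 4 groups together and moderated across genes.

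All 12 libraries entered 1 edgeR 4.0.16 quasi-likelihood fit (R 4.3.3, TMM, robust, 1 mean per group, 7 contrasts), with a prior count of 2 for log CPM. The pipeline was tested on simulated data for diet in wild-type mice alone. It called 65% of 100 genes changed 2-fold and 95% of 100 changed 4-fold, with 11 false calls. Smaller changes were not simulated. The changed genes were drawn from those with a mean above 5 CPM, and differences by the 8 loci or the title code were not simulated. These figures therefore do not give the sensitivity of the real comparison over all genes tested. Counting error covers sampling only, since molecular identifiers are not mentioned. Alternatives were RLE or no scaling factors, no filter, at least 5 CPM in 3 libraries, limma-voom (limma 3.58.1), DESeq2 1.42.0, non-robust dispersions, the compared groups only, the title code or the 8 loci as a term, and leaving out each library. Replicates were numbered in accession order. The members and lists were chosen with earlier results of these data known. Named are all 10 members, up to 4 called genes per list and comparison by size (or, with none called, up to 2 abundant ones), the 3 genes most correlated with each called member, and Clec4f, Cd68, Adipoq, Stab2, Dcn, Krt19 and Fabp2 as markers where needed. Pla2g12b, Mia2, P4hb, Sort1, Srebf2, Nr0b2, Ppara, Pck1, Zpr1, Hpx, Serpina6, Hnf4a, Cdx1, Cdx2, Fabp6, Sis, Lct and the overlapping genes were named after their values were seen.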

Additional observations from a re-analysis of the deposited data

How the results depend on the processing

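Of 1510 values of a member under an alternative, 1439 kept their direction and side of the threshold, 41 changed sign, 22 lost and 8 gained the call. The Apoa4 rise in wild-type mice passed under all 10 alternatives (3.84 to 4.75) and without each library (4.00 to 4.70). On average over genotypes Apoa4 and Apoc2 passed under all 9 alternatives and all 12 omissions, and Apom under 8 and 12, missing with the 8 loci as a term (adjusted p = 0.155). Apoe on average passed with library size only (0.34, adjusted p = 0.049). Where a call changed, the cause was not tested.

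Genes called changed by more than 1.5 times as follows, in the order of the comparisons named. With library size only they were 100 (diet in Mlkl-/-), 36 (genotype on HFD), 1980 (diet on average) and 6 (genotype on average). Without a filter they were 171 (diet in Mlkl-/-), 10 and 124 (genotype on ND and HFD), 1 (interaction) and 74 (genotype on average), and with the 5 CPM filter 2 (genotype on HFD). DESeq2 called 1465 and 514 (diet in wild-type and Mlkl-/-), 49, 398 and 207 (genotype on ND, HFD and average) and 58 (interaction), and limma-voom 0 (genotype on ND). Fits of the compared groups only gave 1431 and 8 for diet and 0 and 2 for genotype. The title code as a term gave 2, 3 and 13 for genotype on ND, HFD and average. The 8 loci gave 158, 27 and 122 for diet in wild-type, Mlkl-/- and average, 3 and 8 for genotype on ND and HFD and 2 for the interaction. Members called for diet in Mlkl-/- mice were 2 with DESeq2, limma-voom or non-robust dispersions and 0 with the compared groups only or the 8 loci, which also left 1 in wild-type mice.

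Leaving out 1 library at a time gave 63 to 1233 genes for diet in wild-type (without wild-type HFD replicate 2 and without Mlkl-/- ND replicate 1), 13 to 729 in Mlkl-/- (without Mlkl-/- ND replicates 3 and 1), 616 to 2029 on average (the same libraries as in wild-type), 0 to 6 for genotype on ND (6 without Mlkl-/- HFD replicate 3), 0 to 189 on HFD (0 without wild-type HFD replicate 1 or 2 or Mlkl-/- HFD replicate 1, 189 without wild-type HFD replicate 3), 1 to 33 on average (33 without wild-type HFD replicate 3) and 0 to 4 for the interaction (4 without Mlkl-/- ND replicate 1). Members called ranged from 1 to 3 for diet in wild-type, from 0 to 3 in Mlkl-/- mice and from 3 to 4 on average (4 without Mlkl-/- ND replicate 1).

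Values that changed sign were small and did not pass. With library size only, which moved the median of all genes by 0.19 (diet in wild-type), 0.14 (diet on average), -0.17 (genotype on HFD) and -0.11 (genotype on average), they were Apob 0.085 (diet in wild-type), Apoa5 0.12 and Apoc3 0.0018 (diet on average), Apoa5 -0.11 and Apoe -0.12 (genotype on HFD) and Apob -0.061 and Apoc3 -0.028 (genotype on average). With the title code they were Apoa1 -0.068 (diet in Mlkl-/-) and 0.033 (genotype on ND), Apoa5 -0.011 and Apoe -0.0036 (genotype on HFD). With the 8 loci they were Apob 0.15 and Apoe -0.015 (diet in wild-type), Apoa2 -0.12 and Apoa5 0.10 (diet on average) and Apoc3 -0.0034 (genotype on average). Leaving out a library gave Apoa1 -0.144 to 0.172 and Mttp -0.0015 to 0.13 (diet in Mlkl-/-), Apoe -0.0118 to 0.113 (diet in wild-type), Apoa2 -0.0282 to 0.192, Apoa5 -0.0864 to 0.0509 and Apoc3 -0.208 to 0.0197 (diet on average), Apoa1 -0.322 to 0.034 and Apoa4 -0.0523 to 1.09 (genotype on ND), Apoa5 -0.0132 to 0.206 and Apoc2 -0.268 to 0.114 (genotype on HFD), Apoa2 -0.208 to 0.012, Apoa4 -0.55 to 0.0309, Apob -0.0416 to 0.131 and Apoc3 -0.0579 to 0.173 (genotype on average) and Apom -0.0307 to 0.494 (interaction).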
